A study of Mus musculus with 6 samples.

Results

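The nuclear genome supplies most of the protein subunits of the mitochondrial respiratory chain, and their transcripts are described here in macrophages sorted from mammary tumour-bearing mice. Members were taken by symbol from the protein-coding genes of the deposited table: Nduf genes of the a, b, c, s and v series for complex I, Sdha to Sdhd for complex II, Uqcr genes for complex III, Cox4 to Cox8 genes for complex IV, Atp5 genes for complex V, and the cytochrome genes Cycs and Cyc1. The rule found 86 of 43432 genes. By complex they were 35 genes of complex I, 4 of complex II, 9 of complex III with Cyc1 among them, Cycs alone as the soluble carrier, 20 of complex IV and 17 of complex V. Ndufa4 and its relative Ndufa4l2 were counted with complex IV, where the Ndufa4 protein is found. Another 3 genes fit the symbol rule but are annotated as pseudogenes and were left out. The rule also takes in Atp5s and Atp5sl, which are not structural parts of ATP synthase, and it misses subunits with other names, such as Ndufab1.

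The cells came from the mammary glands of female MMTV-PyMT mice of the FVB/N strain, in which a viral promoter (MMTV) active chiefly in mammary epithelium drives the middle T oncogene of polyomavirus (PyMT). Macrophages were sorted as live cells positive for CD45, MHC class II and CD14, and their total RNA was amplified from under 100 ng before sequencing. The first group was taken at 11 weeks of age and the other at 8 weeks, 3 libraries each, and every mouse of both groups carried the oncogene. The series sets late against early tumours. The sample titles number the libraries of each age with the prefix an, which may stand for animal, but no label spells this out. Where it does not, the spread that p-values rest on may be technical.

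The respiratory chain passes electrons from NADH through complex I, or from succinate through complex II, to coenzyme Q, then through complex III, cytochrome c and complex IV to oxygen. Complexes I, III and IV pump protons across the inner mitochondrial membrane, and complex V, the ATP synthase, uses their return to make ATP. Complex II is also the succinate dehydrogenase of the citric acid cycle. In macrophages the balance between this chain and glycolysis is known to shift with activation, and succinate and its oxidation at complex II take part in inflammatory signalling.

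The libraries held 38784434 to 75004877 reads assigned to genes, recovered from the deposited values, and 17385 to 19722 genes with a read. Levels are given as normalized counts, that is, reads of a gene divided by 1 scaling factor per library. Levels of different genes are compared per kilobase of the annotated transcript with the longest coding sequence, so the choice of transcript enters them. Where shares of counts, mean levels or normalized counts are compared between genes instead, long transcripts weigh more. Macrophage genes were high in every library, though the summed level of 11 markers was lower at 11 weeks without overlap, at 844868 to 959700 normalized counts at 11 weeks, against 989510 to 1211183 at 8 weeks. Cd74 and H2-Ab1, of MHC class II presentation, were called lower by limma among these, with log2 fold changes of -0.98 and -0.84 (adjusted p = 0.00111 and 0.0127), and are 2 of the 3 lower calls among all genes. Cd74 averaged 104665 at 11 weeks, against 206799 at 8 weeks, and H2-Ab1 79304, against 141395. Of the 11 markers 4, Cd74, H2-Ab1, Ptprc and Csf1r, were lower without overlap and 2, Cd14 and Fcgr1, were higher without overlap. Log2 fold changes of Ptprc and Csf1r were -0.42 and -0.27 (limma adjusted p = 0.434 and 0.609). Log2 fold changes of Cd14 and Fcgr1 were 0.63 and 0.74 (limma adjusted p = 0.198 and 0.481). Lyz2, Cd68, Emr1, Mertk and Itgam overlapped between the ages, with log2 fold changes of 0.02, 0.04, -0.07, -0.38 and -0.54. Markers of some other cell types were apart by age too. The sum of 10 mammary epithelial markers was 26146 to 50037 at 11 weeks, against 9202 to 12654 at 8 weeks, with no marker at 0 throughout and 9 of 10 higher at 11 weeks. Of these Csn3, a milk casein, was called, with a log2 fold change of 1.98 (limma adjusted p = 0.000888). The sum of 8 neutrophil markers was 2340 to 2944 at 11 weeks, against 218 to 466 at 8 weeks, with Elane at 0 in all libraries. Of the 8 markers 5 were tested, and only S100a8 and S100a9 were higher without overlap. Ltf overlapped, at 1036.3, 163.3 and 1525.4 normalized counts at 11 weeks, against 221.1, 266.0 and 149.5 at 8 weeks. Ly6g averaged 0.3 at each age, and Camp 0 at 11 weeks and 0.93 at 8 weeks. Mpo and Ngp were low and overlapped between the ages. The part of these cells in the results below was not tested. In such bulk samples fewer cells of a type and less RNA per cell cannot be told apart.

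Promoter sequence was a feature the symbols did not use. RefSeq promoter windows (GRCm38.p6, 300 bases around the transcript start) matched 70 of the 86 members. Windows were searched on both strands for the motif of NRF1 (nuclear respiratory factor 1), a transcription factor known to act on many respiratory genes, taken as GCGCA and GCGC with any 1 base between them. It stood in 17 of 70 member promoters (24.3%), against 7.17% of 17492 protein-coding genes. By complex the motif was found in 7 of 31 promoters of complex I, 2 of 3 of complex II, 1 of 5 of complex III, 1 of 14 of complex IV and 6 of 16 of complex V. For 6 members whose match lies outside the gene's span in the deposited table, 60 bases are shown so that the motif can be read, 5′ to 3′ on the gene's strand, with the match in capitals. They lie at chr16:37654525-37654584 (minus strand) for Ndufb4, chr4:123718250-123718309 (minus) for Ndufs5, chr13:74350304-74350363 (minus) for Sdha, chr9:50603894-50603953 (minus) for Sdhd, chr5:115349086-115349145 (minus) for Cox6a1 and chr11:115420026-115420085 (minus) for Atp5h.
Ndufb4: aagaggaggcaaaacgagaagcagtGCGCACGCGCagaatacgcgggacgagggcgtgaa
Ndufs5: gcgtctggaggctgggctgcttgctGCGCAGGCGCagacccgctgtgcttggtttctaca
Sdha: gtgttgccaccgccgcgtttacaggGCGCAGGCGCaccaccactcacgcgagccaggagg
Sdhd: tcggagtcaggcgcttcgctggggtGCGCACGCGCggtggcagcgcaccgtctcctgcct
Cox6a1: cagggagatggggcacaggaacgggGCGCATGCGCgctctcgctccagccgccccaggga
Atp5h: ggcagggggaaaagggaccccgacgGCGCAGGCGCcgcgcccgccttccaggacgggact

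Other motifs of factors known from respiratory genes were counted in the same windows. CCGGAAG, read by the ETS factor GABP, was found in 16 of 70 member promoters (22.9%) and in 12.9% of all. AAGATGGCG, read by YY1, was found in 8 of 70 (11.4%) and in 2.14% of all. The GC box GGGCGG, read by Sp1, was found in 29 of 70 (41.4%) and in 49.2% of all. These motifs do not contain each other, and a match is a run of letters, not a bound site. The tested members with the NRF1 motif had a median log2 fold change of 0.11 between the ages and those without it 0.12. For GABP the medians were 0.17 with and 0.10 without the motif, for YY1 0.28 with it in 8 members and 0.11 without, and for Sp1 0.12 with and 0.11 without. No test was made of these differences.

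Of the reads of the chain, which weight long transcripts, the largest share fell on complex V. Its members held 39.8% of the summed normalized counts of all members, complex I 23.2%, complex IV 18.5%, complex II 10.1% and complex III 8.36%. Atp5b, which encodes the catalytic beta subunit of ATP synthase, alone held 17.3%, and Atp5a1, for the alpha subunit beside it, 9.65%. Summed per kilobase of transcript, no complex was the highest in every library. Complex V had 39048, 44168 and 46319 normalized counts per kb at 11 weeks, against 42474, 41310 and 34661 at 8 weeks. Complex I had 41757, 45418 and 45090 per kb at 11 weeks, against 39494, 38473 and 36741 at 8 weeks, and complex IV had 39734, 40386 and 46646 at 11 weeks, against 38140, 34439 and 36559 at 8 weeks. Per kilobase Atp5b was also the highest member, at 13386 normalized counts per kb over the 6 libraries. Cox6a1, a small subunit of complex IV, followed at 8031, then Cox4i1, which lines the complex IV core, at 5890, and Atp5a1 at 5782. The order of Cox4i1 and Atp5a1 cannot be told from these libraries, where per kb Cox4i1 and Atp5a1 overlap. Sums also grow with the number of members. The median member had 1080 normalized counts per kb. By complex the median was 901 for complex I, 1886 for II, 1130 for III, 924 for IV and 1669 for V. Among members averaging 100 or more normalized counts it was 914 for I, 3183 for IV and 1723 for V, and the same for II and III.

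**Figure D1:**
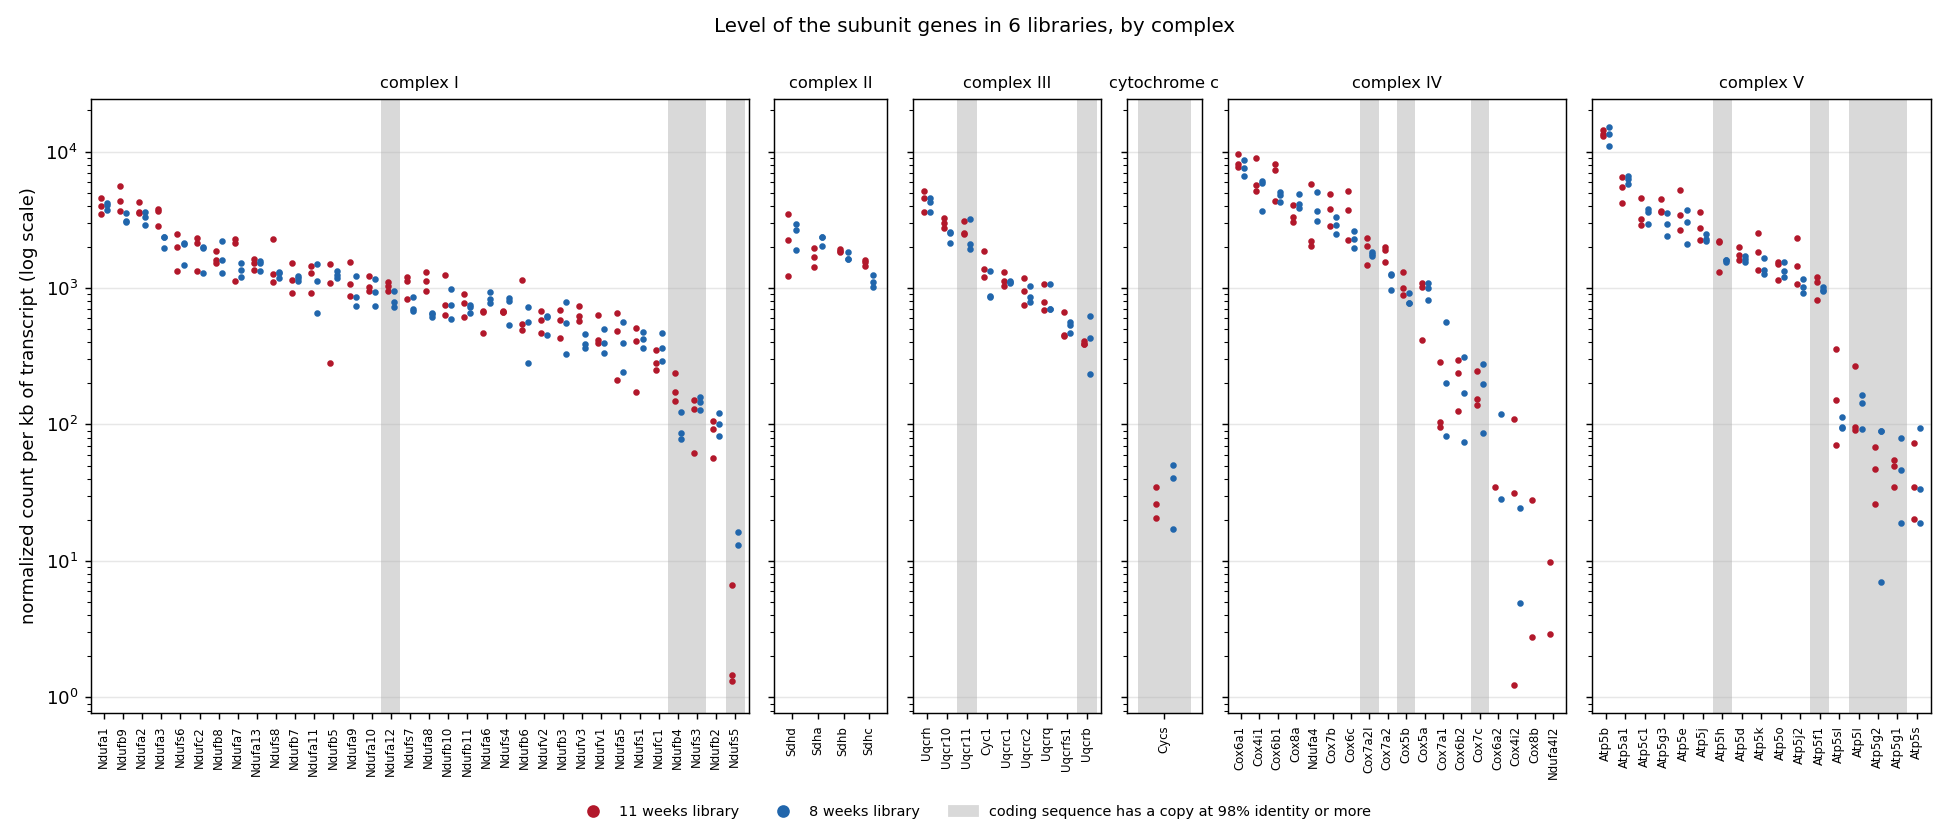
Normalized count per kb of transcript (log scale) of members with a read (1 gene is not drawn), by complex, in 3 libraries at 11 weeks (red) and 3 at 8 weeks (blue). Libraries at 0 are not drawn, and grey bands mark genes with a copy of their coding sequence at 98% identity or more. Atp5b is the highest point set, and the structural genes at the low end of complexes I and V are mostly in grey bands, with Ndufb2 outside them. Ndufb2 is scaled by a long transcript of 4371 bases. Complex II has no grey band.

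The structural members with the lowest mean normalized counts all had near-identical gene copies. Per kb Ndufb2, which has none, was also among the lowest, at 93.2 normalized counts per kb. That value is taken over a long transcript of 4371 bases, and the mean level of Ndufb2 was 407 normalized counts. A blastn search of each coding sequence against mouse transcripts found a copy at 95% identity or more over at least 50% of the sequence for 23 members and none for 63. Tissue-restricted isoforms, Atp5s and Atp5sl were left out of the groups that follow, and Cox7a2l, which acts in supercomplex assembly, was kept. The 53 members without such a copy had mean levels of 372 to 25648 normalized counts, with a median of 1405 normalized counts per kb. The 8 members whose best copy was under 98% identical had a median of 2185 normalized counts per kb. The 15 with a copy at 98% or more had a median of 184 normalized counts per kb, with mean levels of 4.4 to 2104 normalized counts. All 7 structural members with a mean level under 200 were among these 15. They were Ndufb4, Ndufs3 and Ndufs5 of complex I, Cox7c of complex IV, Atp5g2 and Atp5l of complex V, and Cycs. Reads that match a gene and its copy equally can be dropped or shared in counting. The sources used here do not give how such reads were counted, and their part in these levels was not tested.

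Ndufs5, an accessory subunit of complex I (ENSMUSG00000028648, chr4:123712710-123718202, minus strand, GRCm38), had 0.9, 1.0 and 4.5 normalized counts at 11 weeks, against 8.9, 11.1 and 0 at 8 weeks. Its processed pseudogene BC002163 on chromosome 16 had 114.9, 102.8 and 97.9 normalized counts at 11 weeks, against 91.8, 56.8 and 88.8 at 8 weeks. The copy stood above the gene in all 6 libraries. Over the 318 coding bases of Ndufs5 the annotated sequences differ at 2 positions, and the longest run they share is 213 bases. Coding bases 51 to 135 of Ndufs5, counted from the A of the start codon, and the matching bases of the copy are shown because they hold both differences, in capitals.
Ndufs5: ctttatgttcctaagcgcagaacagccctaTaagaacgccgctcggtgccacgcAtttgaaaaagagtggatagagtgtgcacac
BC002163: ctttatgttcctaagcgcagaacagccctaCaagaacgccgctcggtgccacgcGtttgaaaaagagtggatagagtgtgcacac

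Other copies with a listed level had fewer reads on average than their gene. Some copies had no listed level and could not be compared. Ndufa12, an accessory subunit of complex I, has the copy Gm15920, which had 217.0, 253.0 and 217.5 normalized counts at 11 weeks, against 282.6, 340.8 and 235.7 at 8 weeks, next to 535.1, 589.7 and 625.4 at 11 weeks, against 541.2, 411.5 and 445.8 at 8 weeks for Ndufa12 itself. Atp5l, the g subunit of ATP synthase, had 49.7, 52.4 and 145.9 normalized counts at 11 weeks, against 77.6, 88.7 and 50.4 at 8 weeks. Its copy Gm10221 on chromosome 5, identical over all 309 coding bases, had 0 to 5.4. Cycs, which encodes the somatic cytochrome c that carries electrons to complex IV, had 64.4, 81.7 and 107.9 normalized counts at 11 weeks, against 53.5, 157.9 and 127.3 at 8 weeks, and its 4 copies averaged under 1 each. Its ages overlapped, and the level of Cycs, like that of the other members with a copy at 98% or more, is uncertain.

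No member passed an adjusted p of 0.05 between 11 and 8 weeks by limma, in either direction. Of all 21675 genes tested, 0.0507% were called, 0.0369% higher and 0.0138% lower, so 0 of 84 tested members is near the background and is not a result about the members. The other 2 members, Cox7b2 and Cox8c, were listed at 0 in every library. With an unadjusted limma p under 0.05 there were 2 members higher and 0 lower, beside 4.76% higher and 3.27% lower among all genes. The lowest adjusted p of a member was 0.559, for Ndufa8. No member passed with edgeR or limma-voom, which called 14 and 26 genes in all, or with DESeq2, which called 1.95% of genes. DESeq2 gave its lowest member adjusted p to Ndufa8, at 0.0592. Of the 81 members with an adjusted p in the authors' deposited table, 0 were under 0.05, beside 1.91% of all genes, with 0.056 for Ndufa8 as the lowest. The authors' deposited table gave 7 members higher at an unadjusted p under 0.05, beside 4.16% of genes, and 1 lower, beside 3.66%.

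The 2 members with an unadjusted limma p under 0.05 became 10 when 11-week replicate 1 was left out and 4 when 11-week replicate 2 was. Leaving out 8-week replicate 2 gave 1, and each of the other 3 libraries gave 2. The 11 genes called among all genes became 0 on leaving out replicate 1 of either age or replicate 3 at 11 weeks, and 1 on leaving out replicate 2 or 3 at 8 weeks. No member was called in any of these fits.

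Fold changes of the members were small and most were positive. Of 84 tested members 61 had a positive log2 fold change, beside 52.8% of all genes. Their median log2 fold change was 0.14, a 1.098-fold difference, and that of all genes tested was 0.05. Among the 73 members averaging 100 or more normalized counts over the 6 libraries, 54 were positive, beside 48.3% of the genes at that level. Scaled to library totals, the members' median log2 fold change was 0.04, with 49 of 84 positive, and that of all genes was -0.03. Those totals include mitochondrially encoded RNAs. Members held 0.207% to 0.348% of all counts in the 6 libraries, and 0.478% to 0.581% of counts without these RNAs. Scaled to totals without them, the members' median was 0.11, with 58 positive, and that of all genes was 0.03. With upper-quartile scaling the medians were 0.19, with 66 members positive, and 0.10. The libraries of the ages were fully apart in 9 members higher and 2 lower at 11 weeks, beside 6.81% higher and 5.12% lower among all genes. All 11 had a mean of at least 100, where the shares of all genes were 7.66% higher and 7.63% lower.

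The intervals show what the data can hold. For 43 of the 73 members with a mean of at least 100, the 95% interval of the fold change lay inside a 2-fold change in both directions, beside 37.5% of genes at that level. These were 17 of 34 members of complex I, all 4 of complex II, 7 of 9 of complex III, 6 of 12 of complex IV and 9 of 14 of complex V. The narrowest was that of Atp5b, from -0.28 to 0.39 on the log2 scale. For the other 30 a 2-fold change in at least 1 direction was within the interval.

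**Figure D2:**
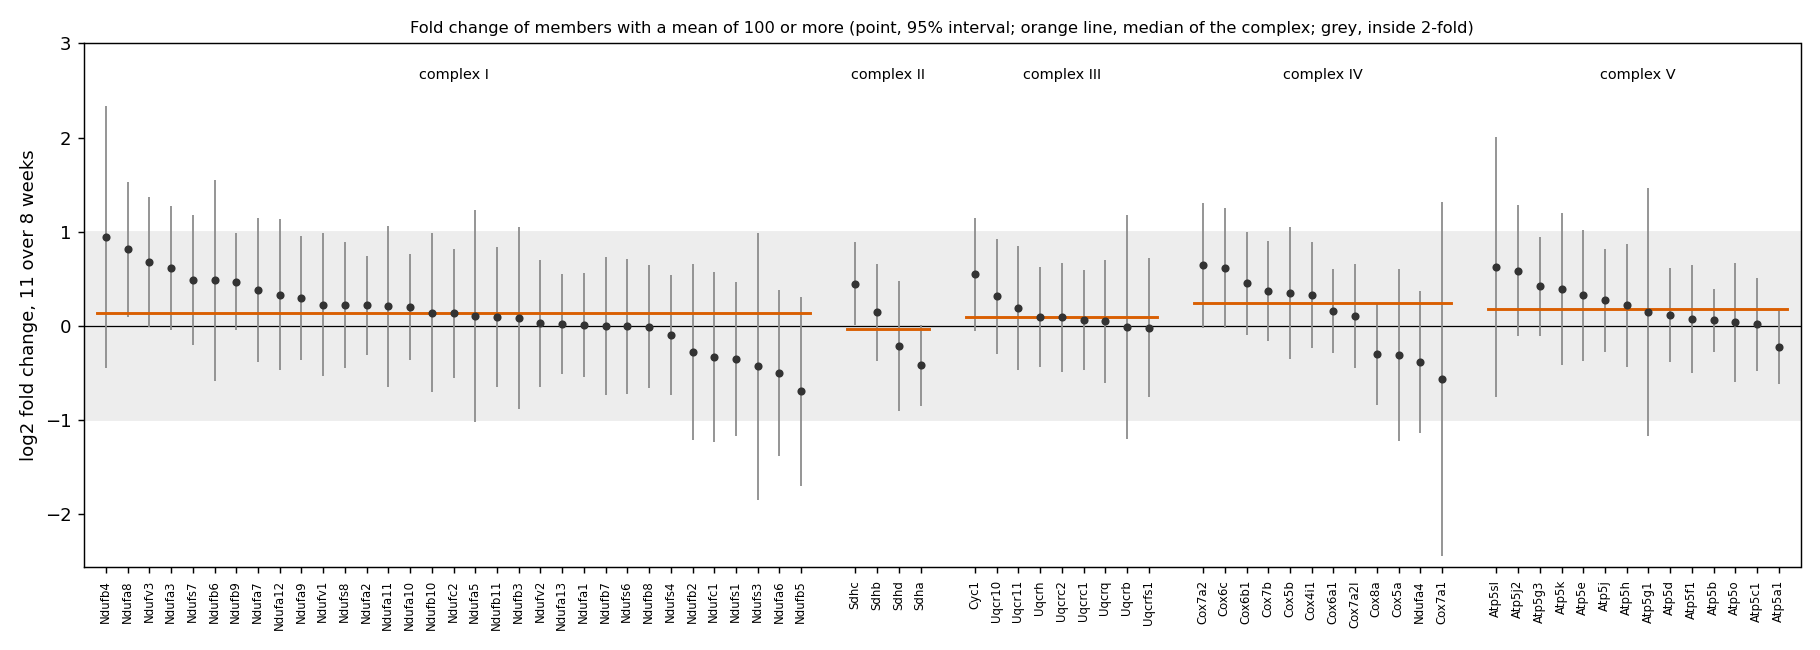
Log2 fold change at 11 over 8 weeks of members averaging 100 or more normalized counts (1 gene is not drawn), by complex, with 95% limma intervals as bars. The orange lines are the medians over all members of each complex at that level, and the grey band is a 2-fold change either way, which holds more of the intervals than it leaves out.

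Among the libraries 11-week replicate 3 stood farthest from the others for these genes. It was the highest of the 6 libraries for 30 of 84 members, and its median absolute log2 deviation from the mean of the libraries was 0.34 over the 73 members, against 0.14 to 0.24 in the other 5. At the other end 8-week replicate 3 was the lowest library for 24 members. The members' median log2 fold change was 0.09 with the 11-week library left out and 0.10 with the 8-week library left out.

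**Figure D3:**
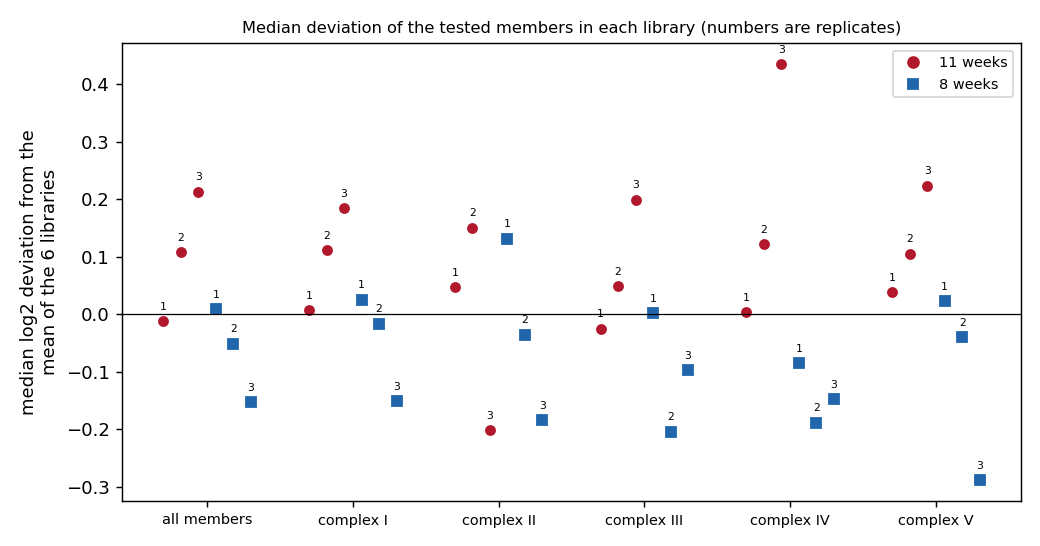
Median log2 deviation of the tested members from the mean of the 6 libraries, for all members and by complex, with the 3 libraries at 11 weeks (red circles) left of the 3 at 8 weeks (blue squares) and replicate numbers above the points. For complex IV 11-week replicate 3 stands at 0.43 and the other libraries lie between -0.19 and 0.12.

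Complex I takes electrons from NADH, and its members summed to 34077, 38698 and 36873 normalized counts at 11 weeks, against 33404, 33009 and 30416 at 8 weeks. The ages did not overlap on this scaling, with a ratio of 1.13. Scaled to library totals they did, at 0.0595%, 0.0716% and 0.0638% of all counts at 11 weeks, against 0.0772%, 0.0614% and 0.0475% at 8 weeks. The median log2 fold change of its 35 members was 0.13, with 24 positive. It was 0.04 with scaling to library totals, 0.05 without 11-week replicate 3, 0.08 without 8-week replicate 3 and 0.20 without 8-week replicate 1. The 7 core subunits, which hold the flavin and iron-sulphur clusters that pass electrons inward, had a median of 0.22, and the 28 accessory subunits 0.12.

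Ndufa8, an accessory subunit with its cysteines in the intermembrane space (ENSMUSG00000026895, chr2:36036326-36049406, minus strand, GRCm38), had the smallest p of all members. It had 819.3, 1130.1 and 968.0 normalized counts at 11 weeks, against 527.8, 565.2 and 555.2 at 8 weeks. All 11-week libraries lay above all 8-week libraries. The log2 fold change was 0.81 ± 0.34 (SE, limma unadjusted p = 0.0282, adjusted p = 0.559), with an interval from 0.10 to 1.52, and its size was 0.70 to 0.93 with any library left out.

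Ndufv3, a small accessory protein beside the NADH-binding module, had 906.6, 1169.4 and 989.7 normalized counts at 11 weeks, against 571.5, 619.3 and 726.0 at 8 weeks. Ndufa3, an accessory subunit of the membrane arm, had 1283.6, 995.0 and 1333.2 at 11 weeks, against 827.4, 828.5 and 692.7 at 8 weeks. In both genes the ages did not overlap, with log2 fold changes of 0.68 ± 0.33 and 0.61 ± 0.31 (SE, with a limma adjusted p of 0.636 and 0.652). Ndufb9, the member of complex I with the highest mean normalized count though not per kb, had 2581.0, 3960.8 and 3033.6 normalized counts at 11 weeks, against 2485.9, 2187.5 and 2148.1 at 8 weeks, where the lowest 11-week value is close to the highest 8-week value. Its log2 fold change was 0.47 ± 0.24 (SE, with a limma adjusted p of 0.662). Ndufb4 also had no overlap, at low levels of 144.4, 167.3 and 230.2 normalized counts at 11 weeks, against 84.7, 76.2 and 119.6 at 8 weeks. Ndufa6, an accessory subunit, was the only member of complex I with all 11-week libraries below, at 400.9, 275.2 and 396.1 against 488.6, 459.9 and 552.6 at 8 weeks.

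Core subunits were described whatever their p. Ndufv1, which binds NADH and flavin, had 692.4, 651.2 and 1058.6 normalized counts at 11 weeks, against 832.8, 653.9 and 551.7 at 8 weeks. Ndufs1, the largest iron-sulphur subunit, had 1083.1, 1348.8 and 456.8 at 11 weeks, against 958.5, 1271.8 and 1132.5 at 8 weeks. In both genes the ages overlapped, and 11-week replicate 3 was the extreme library, highest for Ndufv1 and lowest for Ndufs1. Ndufs3, Ndufs7, Ndufs8 and Ndufv2, also core subunits, had log2 fold changes of -0.43, 0.49, 0.22 and 0.03, and their ages overlapped too.

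Complex II oxidises succinate and is built from nuclear subunits alone. Its sum was 14476, 17035 and 12832 normalized counts at 11 weeks, against 16203, 14625 and 14626 at 8 weeks, a ratio of 0.976, with overlap. Within it the subunits differed in direction. Sdha, the flavoprotein that binds succinate (ENSMUSG00000021577, chr13:74322254-74350280, minus strand, GRCm38), had 4930.3, 5719.9 and 4143.8 normalized counts at 11 weeks, against 6879.9, 5882.3 and 6902.8 at 8 weeks. All 11-week libraries lay below all 8-week libraries, though 5719.9 at 11 weeks is close to 5882.3 at 8 weeks. The log2 fold change was -0.42 ± 0.20 (SE, limma unadjusted p = 0.0562, adjusted p = 0.637).

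Sdhc, a membrane anchor of the complex (ENSMUSG00000058076, chr1:171127165-171150603, minus strand, GRCm38), had 4560.6, 4922.5 and 5081.0 normalized counts at 11 weeks, against 3945.5, 3230.7 and 3518.0 at 8 weeks. The ages did not overlap, and the log2 fold change was 0.45 ± 0.21 (SE, limma unadjusted p = 0.0456, adjusted p = 0.616). Sdhb, the iron-sulphur subunit, had 2209.5, 2119.0 and 2105.4 at 11 weeks, against 2106.9, 1867.5 and 1865.3 at 8 weeks. Sdhd, the other anchor, had 2775.9, 4273.3 and 1501.8 at 11 weeks, against 3270.5, 3644.9 and 2339.4 at 8 weeks. Sdhb and Sdhd overlapped between the ages, and the 11-week values of Sdhd spanned a wider range than those of the other 3 subunits. The log2 fold change of Sdhd was -0.22 ± 0.33 (SE, with a limma adjusted p of 0.865) and took the other sign without 11-week replicate 3.

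**Figure D4:**
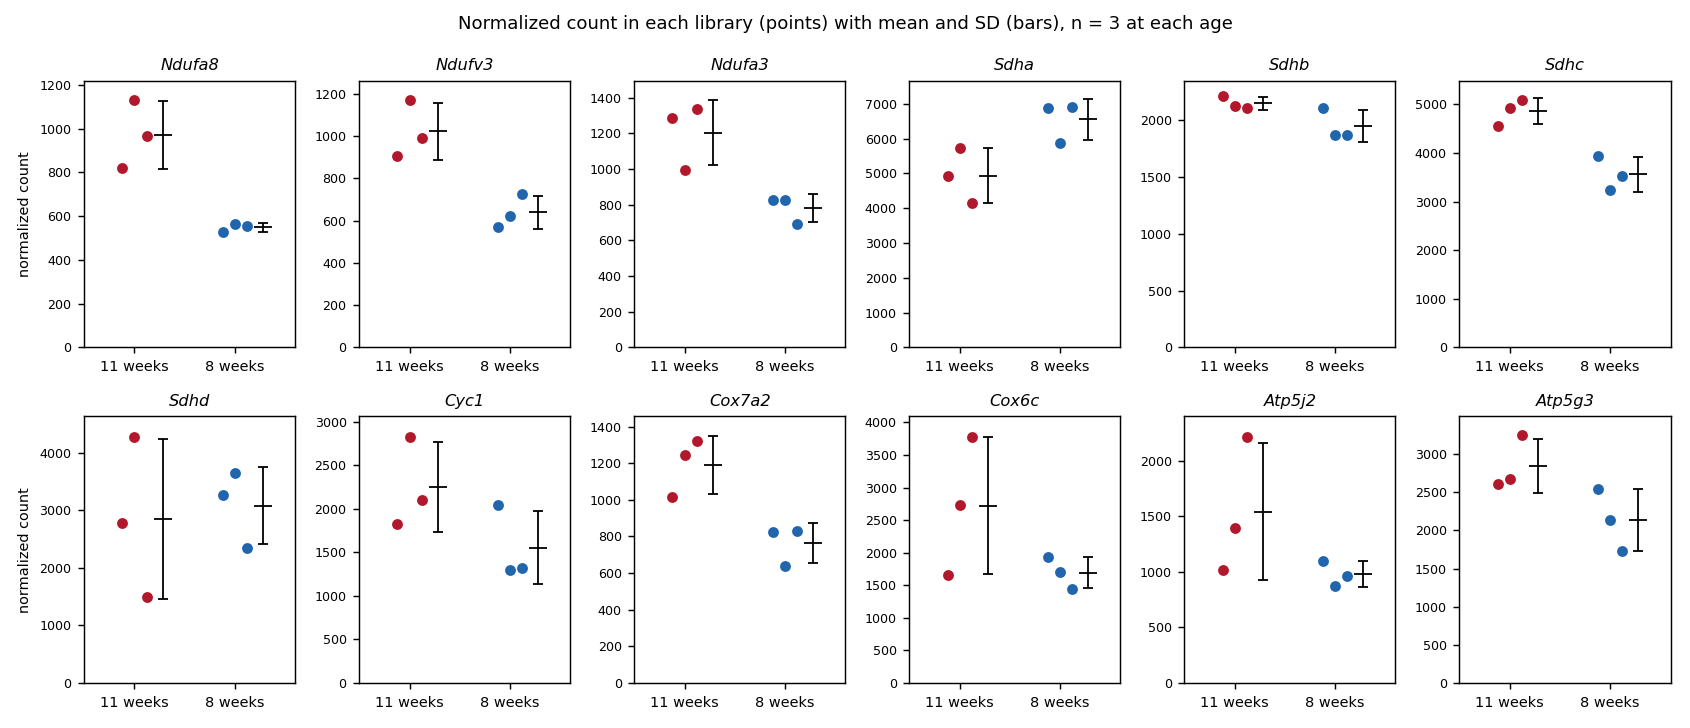
Normalized counts of 12 members in each library, 3 at 11 weeks (red, left) and 3 at 8 weeks (blue, right), with the mean and SD as bars. In Ndufa8, Ndufv3, Ndufa3, Sdhc, Cox7a2 and Atp5g3 every 11-week point lies above every 8-week point, in Sdha every 11-week point lies below, and the other 5 genes overlap.

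Complex III passes electrons from coenzyme Q to cytochrome c. Its members summed to 11920, 14197 and 13230 normalized counts at 11 weeks, against 12071, 11118 and 11710 at 8 weeks, with overlap and a ratio of 1.13. The median log2 fold change was 0.09, and it was 0.00 with scaling to library totals, 0.06 with limma-voom, 0.14 with upper-quartile scaling, 0.14 without 11-week replicate 1, 0.05 without 8-week replicate 1 and 0.23 without 8-week replicate 3. Cyc1, the cytochrome c1 that hands electrons to cytochrome c, had 1827.9, 2828.7 and 2105.4 at 11 weeks, against 2040.1, 1295.3 and 1323.0 at 8 weeks. The ages overlapped through 8-week replicate 1, and the log2 fold change was 0.55 ± 0.29 (SE, with a limma adjusted p of 0.666).

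Uqcr10, a small accessory subunit, was the only member of complex III without overlap, at 1291.0, 1196.6 and 1408.5 normalized counts at 11 weeks, against 1089.6, 1120.8 and 928.4 at 8 weeks. The gap between the ages was small, and its log2 fold change of 0.31 ± 0.29 (SE) had a limma adjusted p of 0.815. Uqcr11, another small subunit, had 1131.9, 1098.8 and 1368.6 at 11 weeks, against 863.1, 933.7 and 1428.9 at 8 weeks. Uqcrh, the hinge protein and the member of complex III with the highest level by count and per kb, had 2504.7, 2801.5 and 1962.2 at 11 weeks, against 2323.6, 2488.1 and 1965.3 at 8 weeks. Uqcr11 and Uqcrh overlapped, as did Uqcrfs1, the Rieske iron-sulphur protein, with a log2 fold change of -0.02 ± 0.35 (SE). Uqcrc1, Uqcrc2, Uqcrq and Uqcrb had log2 fold changes of -0.01 to 0.09.

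Complex IV reduces oxygen, with a catalytic core made from mitochondrial genes and a shell of nuclear subunits. The nuclear members summed to 26877, 28363 and 33575 normalized counts at 11 weeks, against 26130, 24212 and 24826 at 8 weeks, a ratio of 1.18 without overlap. Scaled to library totals the ages overlapped, at 0.0469%, 0.0525% and 0.0581% of all counts at 11 weeks, against 0.0604%, 0.0451% and 0.0388% at 8 weeks. The ratio of complex IV was 1.09 with those totals and 1.16 with totals without mitochondrially encoded RNAs. The ratio of the sums was 1.102 without 11-week replicate 3. The median log2 fold change of the 18 tested members was 0.34, of the 12 with a mean of at least 100 it was 0.24, of the 13 with such a mean at either age 0.15, and of the 18 it was 0.19 without 11-week replicate 3 and 0.20 without 8-week replicate 3.

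Cox7a2, the broadly expressed form of subunit VIIa, had 1015.1, 1243.0 and 1319.6 normalized counts at 11 weeks, against 823.9, 638.7 and 830.2 at 8 weeks. It was the only member of complex IV without overlap, with a log2 fold change of 0.64 ± 0.31 (SE, with a limma adjusted p of 0.637). Cox6c had 1660.6, 2733.9 and 3774.9 at 11 weeks, against 1927.7, 1699.9 and 1446.8 at 8 weeks, and its lowest 11-week library lay inside the 8-week range. Its log2 fold change of 0.62 ± 0.30 (SE, with a limma adjusted p of 0.637) was 0.34 without 11-week replicate 3. Cox6b1, on the intermembrane face, had 2693.2, 4541.4 and 5017.5 at 11 weeks, against 2955.8, 2617.0 and 3103.8 at 8 weeks. Cox6a1, the member with the highest mean here, had 5497.6, 4587.8 and 4395.8 at 11 weeks, against 4316.4, 3801.5 and 4915.3 at 8 weeks. Both overlapped. Ndufa4 had 3504.1, 1229.9 and 1357.7 at 11 weeks, against 3083.3, 1896.6 and 2235.2 at 8 weeks, with replicate 1 the highest library at each age.

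The isoform pairs of complex IV showed which forms these cells carried. Cox4i1 stood at 5890 normalized counts per kb and its lung-type and hypoxia-linked relative Cox4i2 at 28.8. Cox6a1 stood at 8031 per kb and the heart and muscle form Cox6a2 at 30.4. Cox6b1 stood at 5644 per kb and the testis form Cox6b2 at 203. Cox7a2 stood at 1485 per kb, the muscle form Cox7a1 at 223, and Cox7a2l, a relative that acts in supercomplex assembly, at 1863. Cox8a stood at 3878 per kb, the heart and muscle form Cox8b at 5.1, and Cox8c was at 0 in all libraries. Ndufa4 stood at 3636 per kb and its hypoxia-linked relative Ndufa4l2 at 2.1.

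The restricted forms were uneven across the libraries. Cox4i2 had 80.9, 23.2 and 0.9 normalized counts at 11 weeks, against 3.6, 18 and 0 at 8 weeks. Cox6a2 had 0, 0 and 23.6 at 11 weeks, against 81.1, 19.4 and 0 at 8 weeks. Cox7a1 had 139.8, 46.4 and 50.8 at 11 weeks, against 98.1, 40.2 and 272.5 at 8 weeks. All 3 genes overlapped between the ages. Striated muscle markers summed to 29.1 to 232.6 normalized counts at 11 weeks, against 1.4 to 43.5 at 8 weeks, with Myh1, Myh6 and Myl1 at 0 in every library, and their part in these levels was not tested. Ndufa4l2 had 9.2, 0 and 2.7 and Cox8b 0, 1.0 and 10 at 11 weeks, and both were at 0 in all 8-week libraries.

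Complex V summed to 56080, 63891 and 59310 normalized counts at 11 weeks, against 62669, 60398 and 51002 at 8 weeks, a ratio of 1.03 with overlap. Atp5b had 24782.8, 27447.1 and 25919.8 at 11 weeks, against 29036.1, 25812.3 and 20891.2 at 8 weeks. Atp5a1 had 13488.8, 15947.9 and 10371.4 at 11 weeks, against 15480.6, 16235.2 and 14200.2 at 8 weeks. These catalytic subunits overlapped between the ages, with log2 fold changes of 0.06 ± 0.16 and -0.23 ± 0.18 (SE, with a limma adjusted p of 0.933 and 0.802). Atp5c1, the gamma subunit of the central stalk, had a log2 fold change of 0.02 ± 0.23 (SE).

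Of the 17 members of complex V 15 had a positive log2 fold change, with a median of 0.14. The median was 0.04 with scaling to library totals, 0.08 without 11-week replicate 3 and 0.28 without 11-week replicate 2, and 0.22 without 8-week replicate 2. Atp5j2, the f subunit of the membrane part, had 1014.2, 1392.2 and 2217.8 normalized counts at 11 weeks, against 1102.1, 874.2 and 963.4 at 8 weeks. It overlapped, and its log2 fold change of 0.58 ± 0.33 (SE, with a limma adjusted p of 0.698) was 0.28 without 11-week replicate 3. Atp5g1, Atp5g2 and Atp5g3 encode the same c subunit of the proton-driven ring after their import sequences are removed. Per kb Atp5g3 stood at 3447 normalized counts, Atp5g2 at 54.6 and Atp5g1, over a long transcript of 4715 bases, at 47.4. Atp5g1 and Atp5g2 each have a copy at over 99% identity and Atp5g3 has none. Atp5g3 had 2609.5, 2669.4 and 3254.7 normalized counts at 11 weeks, against 2544.7, 2140.4 and 1735.5 at 8 weeks, without overlap and with a log2 fold change of 0.42 ± 0.25 (SE, with a limma adjusted p of 0.717).

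The mitochondrial genome encodes the other 13 subunits of complexes I, III, IV and V. Of these 7 had reads, and mt-Nd3, mt-Nd4l, mt-Co2, mt-Co3, mt-Atp6 and mt-Atp8 were listed at 0 in every library while their neighbours on the same genome were among the highest genes. The 7 summed to 2541625, 2195279 and 2393051 normalized counts at 11 weeks, against 1417985, 2064886 and 3124553 at 8 weeks. The 8-week libraries spanned a wider range than the 11-week libraries, and none of the 7 was called by limma. Their median log2 fold change was 0.22, with 6 of 7 positive, and mt-Cytb, the cytochrome b of complex III, had 0.24 ± 0.16 (SE, with a limma adjusted p of 0.759).

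Other genes of the pathway gave no limma call either, in 11 lists of assembly factors, regulators and neighbouring enzymes with 95 tested genes. At an unadjusted limma p under 0.05 there were 8 higher and 2 lower of the 95, beside 4.76% higher and 3.27% lower among all genes, and the counts per list below are to be read beside those shares. Of 14 tested assembly factors of complex I, 1 had an unadjusted p under 0.05 and was higher: Tmem186, with 83.7, 262.1 and 409.7 normalized counts at 11 weeks, against 42.8, 26.3 and 46.1 at 8 weeks. Its log2 fold change was 2.45 ± 0.82 (SE, with a limma adjusted p of 0.422), and DESeq2 called it (adjusted p = 0.00829). Of 6 tested factors of complex III, Bcs1l, which inserts the Rieske protein, was higher at 201.4, 307.5 and 198.5 against 88.3, 83.1 and 35 at 8 weeks. Ttc19, which keeps the new complex clear of Rieske fragments, was lower at 679.5, 685.5 and 1064.1 against 1363.3, 1471.3 and 1364.0 at 8 weeks. Neither overlapped between the ages, with limma adjusted p of 0.491 and 0.492.

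Of 20 tested assembly factors of complex IV, 2 were higher and 1 lower at an unadjusted p under 0.05. Cox14, which stabilises the mitochondrially made Cox1 protein, had 919.5, 835.7 and 1112.1 normalized counts at 11 weeks, against 519.8, 615.1 and 274.2 at 8 weeks. Surf1 had 370.6, 370.0 and 600.0 at 11 weeks, against 327.2, 175.9 and 102.5 at 8 weeks, and Cox15, of heme a synthesis, had 1237.6, 808.5 and 915.4 at 11 weeks, against 1405.2, 1332.7 and 2025.9 at 8 weeks. None of the 3 overlapped, and their limma adjusted p were 0.460, 0.584 and 0.606. The 2 tested factors of complex II, the 3 of complex V and the heme lyase Hccs of cytochrome c had none under an unadjusted p of 0.05.

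Among 12 regulators Tfb2m, a factor of mitochondrial transcription, had an unadjusted p under 0.05 and was higher, at 217.0, 770.2 and 560.1 normalized counts against 165.8, 230.0 and 199.9 at 8 weeks, with overlap. Nrf1, the factor whose motif was searched above, had 939.7, 2123.0 and 2685.5 at 11 weeks, against 2008.0, 816.0 and 750.8 at 8 weeks, and overlapped. Ppargc1a, a coactivator of mitochondrial genes, had 3.7, 0 and 115.1 at 11 weeks, against 0.9, 1.4 and 0 at 8 weeks, so its mean rests on 11-week replicate 3. In the citric acid cycle 2 of 13 genes were higher at an unadjusted p under 0.05 and 0 lower. Idh3a, the catalytic subunit of NAD-dependent isocitrate dehydrogenase, had 548.0, 799.4 and 717.8 at 11 weeks, against 525.2, 223.0 and 229.8 at 8 weeks. Dlst, of the oxoglutarate dehydrogenase complex, had 3666.0, 3912.4 and 3409.7 at 11 weeks, against 3025.3, 2686.2 and 1978.9 at 8 weeks. Both genes lay above in every 11-week library, with limma adjusted p of 0.496 and 0.601.

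Genes next to the chain were also measured. Irg1, whose enzyme makes itaconate, an inhibitor of complex II, had 357.7, 216.7 and 212.1 normalized counts at 11 weeks, against 104.3, 271.5 and 24.8 at 8 weeks, with overlap and a log2 fold change of 1.5 ± 0.79 (SE, with a limma adjusted p of 0.668). Of 12 coenzyme Q synthesis genes 0 were under an unadjusted p of 0.05. Of 10 inner-membrane carriers Ucp3, an uncoupling protein, had an unadjusted p under 0.05 and was higher. Its counts were low, at 6.4, 6.0 and 15.4 against 0, 0 and 0.9 at 8 weeks. The log2 fold change of Ucp3 was 2.93 ± 1.25 (SE, with a limma adjusted p of 0.584). Ucp2, an abundant relative of Ucp3, had 53234.3, 58016.3 and 43438.6 at 11 weeks, against 54692.0, 55498.2 and 63662.7 at 8 weeks. Ucp2 overlapped between the ages. The 4 tested genes listed as missed by the symbol rule, Ndufab1, 2010107E04Rik, Usmg5 and Atpif1, had log2 fold changes of -0.22 to 0.01. Atpif1 encodes an inhibitor of ATP synthase and not a structural subunit.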

How the data were processed

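Per the labels' protocols, RNA of sorted cells was made into libraries with the Nugen Ovation and Nextera kits. Per the submitters' processing notes STAR 2.4, DESeq2 1.6 and GRCm38 were used; the sources used here do not give the counting tool and annotation. The authors deposited 1 signal value per gene and library. Each value is a count that was divided by a factor of its library and rounded, as the values themselves show. The deposited table also holds the authors' log2 fold change, fold ratio, p-value and adjusted p-value (log2 and p-value columns were used only where named).

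Genes with a mean of at least 1 at either age were tested by limma 3.58.1 (R 4.3.3; trend, robust) on log2(value + 1), 11 against 8 weeks, with Benjamini-Hochberg adjustment over all genes at 0.05. Fold changes are on that scale, which understates changes of low genes. The values were not whole counts, so edgeR 4.0.16, DESeq2 1.42.0 and limma-voom were run as alternatives on recovered reads, of which at least 99.96% of nonzero values came out whole within the rounding. Libraries of 1 age differed by more than counting noise (chi-square per degree of freedom 125.6 to 359.1). Other alternatives covered scaling, pseudocount, filter, replicate block and leaving out each library. Copies were sought with blastn (BLAST 2.17.0) in GENCODE M21 transcripts. Use of strand in counting is not stated, so antisense reads cannot be told apart. Of these steps only the limma fit was tested on simulated data.

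Members and the 22 gene lists were chosen with earlier results of these data known. Named genes are, per complex, the 3 members with the smallest p and the highest, all of complex II, cytochromes, isoforms, core subunits and members without overlap, and up to 3 genes per list. Ppargc1a, Nrf1 and Gm15920 were named after their values were seen. One member entered all counts and sums but is not reported here by name.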

Additional observations from a re-analysis of the deposited data

How the results depend on the processing

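Across all tools, scalings, pseudocounts, filters, the replicate block and each left-out library, the number of members called stayed at 0. The count of all genes called, 11 in the limma fit, was 422 with DESeq2, 26 with limma-voom, 4 with scaling to library totals, 5 with a pseudocount of 8 and 45 with the replicate block, and 0 to 8 with 1 library left out. Members with an unadjusted p under 0.05, 2 in the limma fit, were 8 with DESeq2, 0 with library totals, 7 with upper-quartile scaling, 4 where the filter was a mean of 100, and 1 with the replicate block, and 1 to 10 with 1 library left out. Members without overlap, 11 with the deposited scaling, were 6 with library totals. The cause of these differences was not tested. Same-numbered deviations correlated at -0.011, -0.0044 and -0.010 over 11338 genes, against -0.021 to 0.029 for libraries with different numbers. With 3 libraries per age this cannot settle whether same-numbered libraries were handled together. The block moved no member across the threshold, though it raised the calls among all genes from 11 to 45. Median fold changes and summed levels per complex moved by less than the spread between replicates, taken from the SDs of both ages together. For all members this spread was 0.139 beside a median log2 fold change of 0.135. A move of that median to 0 would also have been within it, so the comparison cannot show that the median is stable. The members' median log2 fold change was 0.14 over the 81 tested structural members. Unlike the groups by gene copy, this set leaves out Cox7a2l and keeps the tested tissue-restricted isoforms. It was 0.11 over all members with the 4 listed genes that the symbol rule misses, Atpif1 among them, added. Of 807 alternative values of 48 named members, 42 took the other sign, and none was called. Of 1039 values of 62 genes from the lists, 11 gained a call and 19 lost it. Of the members under a mean of 100, none had an interval inside a 2-fold change, and whether depth sets this was not tested.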

Other observations

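Atp5s, coupling factor B, had 117.7, 32.3 and 55.3 normalized counts at 11 weeks, against 30.3, 54.0 and 149.5 at 8 weeks, and Atp5sl had 221.6, 102.8 and 519.3 at 11 weeks, against 138.2, 164.9 and 140.1 at 8 weeks. Both overlapped between the ages.

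Markers of further cell types that a sort of CD45-positive, MHC class II-positive and CD14-positive cells should remove were summed in the same libraries. The 6 T cell markers summed to 1900 to 3374 normalized counts at 11 weeks, against 2672 to 3209 at 8 weeks. Cd4 made up most of this sum, while Cd3e, at 170.1 to 345.8 against 5.1 to 117.8 at 8 weeks, and Trac, at 37.3 to 75.2 against 1.4 to 14.5 at 8 weeks, were higher without overlap at an unadjusted limma p under 0.05. Cd3g went the other way, at 2.8, 53.4 and 9.1 at 11 weeks, against 85.6, 33.2 and 63.2 at 8 weeks, with overlap. Log2 fold changes were -2.17 for Cd3g and -0.46 for Cd4, and 4 of the 6 T cell markers were positive. The 5 B cell markers summed to 5.0 to 408.8 at 11 weeks, against 25.6 to 302.3 at 8 weeks. Both sums overlapped between the ages. The 6 fibroblast markers summed to 1290 to 3023 at 11 weeks, against 585 to 1050 at 8 weeks, without overlap, and 3 of the 6 had an unadjusted limma p under 0.05, all higher. The 5 endothelial markers summed to 521 to 1034 at 11 weeks, against 210 to 373 at 8 weeks, with Cdh5 higher and Tek lower at an unadjusted p under 0.05. The 6 adipocyte markers summed to 12 to 133.2 at 11 weeks, against 41.9 to 121.9 at 8 weeks, with Plin1 higher at an unadjusted p under 0.05. None of these markers was called by limma, and their part in the member values was not tested.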
